A study of Nothobranchius furzeri with 9 samples.

Results

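The liver of the African turquoise killifish was read here through its 200 most abundant long non-coding RNA (lncRNA) genes. They were chosen by their mean TPM over 9 liver libraries, as the highest of 1044 genes of type lncRNA in a table of 25475 genes. TPM is a transcript level that the authors divided by transcript length and brought to one total in all libraries, so that it can be set side by side between genes. All libraries came from male fish of the wild-type GRZ strain, an inbred and very short-lived strain, with no treatment in the labels and 3 libraries at each of 3 ages. Young fish were 6 weeks old, adult fish 12 weeks and old fish 23 to 24 weeks. The replicates are separate samples per the labels, and nothing else says that they are separate fish, so p-values measure the spread between these samples, which may be technical.

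lncRNAs are long transcripts without an annotated protein-coding reading frame. Many are capped, spliced and polyadenylated as messenger RNAs are, many stay in the nucleus, and many are short-lived because nuclear decay machinery removes them. Known examples in vertebrates act as scaffolds for chromatin complexes, as regulators of neighbouring genes or as hosts of small RNAs, and for most no function is known. None of the 200 genes has a symbol, a description or an Entrez number (0 of 200), so they are named by Ensembl ID and no role is given to any of them. A list of 26 symbols of lncRNA and host genes known from other vertebrates found 0 genes in the table. No sequences are shown, since none of the sources used here holds them.

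The levels of the 200 genes, which chose them and are given as a description, ran from 0.504 to 1503 TPM in the mean of the 9 libraries, with a median of 1.77 TPM. Only 4 genes had a mean over 100 TPM, 30 over 10 TPM and 139 over 1 TPM. Together they held 98.8% of all lncRNA TPM. Of the other lncRNA genes, 268 had no count in any library. At the lower end the last 5 genes had mean levels of 0.516, 0.514, 0.512, 0.511 and 0.504 TPM, and the next 5 lncRNA genes, left out, had 0.499, 0.473, 0.463, 0.463 and 0.444 TPM. The boundary therefore cuts through a continuous range. Taking the 200 genes by median TPM would have kept 188 of them, and by geometric mean 191.

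Total counts per library were between 19600325 and 33951438. Genes annotated as ribosomal RNA (rRNA) took 29.65% of the counts of young replicate 1, against 4.52 and 4.74% in the other young libraries, 2.22 to 2.51% in the adult libraries, and 21.98, 15 and 7.07% in old replicates 1, 2 and 3. Here and below, this share covers the gene types rRNA and mitochondrial rRNA together. Young replicate 1 stands apart from the other young libraries. Counts of called genes and some medians are given with and without it, while most other counts include it. The 12 hepatocyte markers found in the table summed to between 150600 and 312400 TPM in each library, with none of the 12 at 0 throughout. The sum was lowest in the 3 libraries with the most rRNA. These are old replicate 1 (150600 TPM), old replicate 2 (197400) and young replicate 1 (208800), with adult replicate 1 (212200) close above. The part of this difference in the lncRNA levels was not tested. The 12 exocrine pancreas markers summed to 92070, 8652 and 31180 TPM in the adult libraries, to 396.6 to 3554 TPM in the young and to 601.1 to 1167 TPM in the old ones, with cpa4 at 0 throughout.

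The most abundant lncRNA gene was ENSNFUG00015005137 (chromosome sgr10, 17615431 to 17619769, plus strand, of an unnamed genome build). It had 460.1, 1444 and 944.6 TPM in the young libraries, 1666, 1486 and 1915 TPM in the adult and 1323, 1736 and 2550 TPM in the old ones. On this scale every young library lies below every adult library, while adult and old libraries overlap. The second, ENSNFUG00015008440 (sgr08, 21077482 to 21081426, minus strand), had 541.2, 575.5 and 597.7 TPM in young, 552, 653.4 and 609.1 TPM in adult and 723.9, 784.1 and 760.2 TPM in old fish. Its 3 old libraries are above all others in TPM. In CPM, the scale used below for changes, old replicates had 711, 669 and 595 and young ones 554, 288 and 316 (old against young log2 0.77 ± 0.30, edgeR adjusted p = 0.26).

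The third gene was ENSNFUG00015012578, on the unplaced scaffold LN600929.1 from 17897 to 33406 on the plus strand. It had 55.95, 181.6 and 105.9 TPM in young, 379.4, 512.7 and 438.1 TPM in adult and 486.1, 637.7 and 426.5 TPM in old fish. Young libraries were the lowest and the adult and old ones overlap on the TPM scale. Its deposited TPM is 5.39 times its CPM per kilobase of listed gene length, against a median ratio of 1.08 over the 200 genes, so its TPM rests on a shorter length than the 3949 bases listed. By counts per listed kilobase it would be eighth among lncRNA genes, and 191 of the 200 genes would also be among the top 200. Such a ratio is not particular to this gene. ENSNFUG00015022344 (9.84, rank 16) and ENSNFUG00015011863 (7.02, rank 67) had larger ones and would move to ranks 87 and 182. The fourth gene, ENSNFUG00015003559 (sgr02, 26728488 to 26812406, minus strand), had 781.8, 540 and 129.5 TPM in young, 58.36, 70.62 and 79.36 TPM in adult and 772.1, 546.8 and 234.2 TPM in old fish, lowest in the 3 adult libraries.

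The genes at ranks 5 to 10 had means of 98.6 (ENSNFUG00015009027), 93.7 (ENSNFUG00015011382), 68.3 (ENSNFUG00015006948), 59.1 (ENSNFUG00015015303), 55.8 (ENSNFUG00015001016) and 54.7 TPM (ENSNFUG00015002836). In each of these 6 genes every old library was above every adult one, in TPM and in CPM. In CPM the same held for 49.7% of the abundant lncRNA genes tested below and for 19.1% of all genes tested. These 6 genes were ranked by a mean TPM that includes the old libraries, which favours genes high in old fish. ENSNFUG00015011382 was the most uneven, with 145.1, 22.9 and 11.58 TPM in young, 6.428, 10.86 and 14.25 TPM in adult and 310, 253.2 and 68.46 TPM in old fish. From rank 5 to rank 10 the range of the 9 libraries of each gene overlaps that of the next. Whether neighbours in this order differ within the same libraries was not tested.

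**Figure D1:**
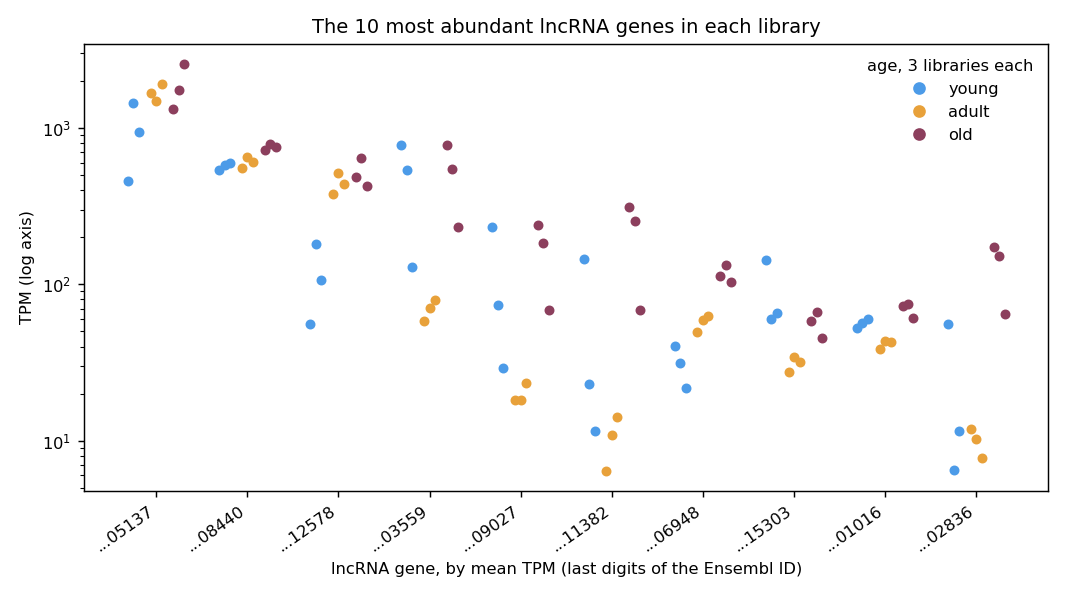
TPM (log axis) of the 10 most abundant lncRNA genes, in order of mean TPM, with 1 point per library and 3 libraries per age from left to right as replicates 1 to 3. ENSNFUG00015012578 is lowest in the young libraries (55.95 to 181.6 TPM), and ENSNFUG00015003559 is lowest in the adult ones (58.36 to 79.36 TPM).

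The 200 genes took a larger share of all TPM in old liver. Their share was 0.348, 0.393 and 0.268% in the young libraries (mean 0.337 ± 0.0631, SD, n = 3), 0.328, 0.346 and 0.379% in the adult ones (0.351 ± 0.0257) and 0.533, 0.554 and 0.508% in the old ones (0.532 ± 0.0229). The 3 old libraries lie above the other 6, and young and adult libraries overlap. No test was run on this share. With rRNA and mitochondrial genes taken out of the total the mean shares were 0.394, 0.365 and 0.609%. The most abundant gene alone made up between 13.2% (young replicate 1) and 50.8% (adult replicate 1) of the summed TPM of the 200. Without the 4 genes over 100 TPM, the rest summed to 1644, 1189 and 905.9 TPM in young, 625.3, 741.7 and 747.7 TPM in adult and 2028, 1837 and 1113 TPM in old fish. This remainder was lowest in the 3 adult libraries and did not separate young from old.

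Changes between ages were tested on counts in edgeR with all 9 libraries, and levels for them are CPM, counts relative to the TMM-scaled library size, which compare libraries and not genes. Of the 200 genes 189 passed the filter on low counts and 11 did not. The adjusted p is over all 13971 genes tested, and under 0.05 counts as changed. Because a gene could pass the filter through the age where it is high, the counts below speak of the 189 tested genes and not of all 200.

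Between young and old liver 2 lncRNA genes rose and none fell. These are ENSNFUG00015012578 and ENSNFUG00015002266, or 1.06% of those tested, against a background of 0.558% of all genes called in either direction and 0.344% called higher. So few calls do not set the lncRNA genes apart from that background. ENSNFUG00015012578 was named beforehand with earlier results of these data known, so its values are a description. ENSNFUG00015012578 had 64.8, 85 and 52.8 CPM in the young libraries, 247, 289 and 255 CPM in the adult and 477, 549 and 341 CPM in the old ones. In CPM the 3 ages do not overlap, and the gene is higher at each step. In TPM, as given above, its adult and old libraries overlap. Old against young the difference was 2.75 ± 0.31 on the log2 scale (SE, edgeR adjusted p = 0.0106). The steps were 1.96 ± 0.30 for adult against young (adjusted p = 0.0961) and 0.79 ± 0.29 for old against adult (adjusted p = 0.159), neither past the threshold in edgeR. The old against young call ended without old replicate 2 (2.59, adjusted p = 0.0564) and in a fit of the 2 ages alone (2.74, adjusted p = 0.0804). Its adjusted p was 3.2e-15 at the lowest and 0.0804 at the highest among the alternatives. The nearest coding gene, METRNL, a secreted meteorin-like protein gene, lies 13996 bases downstream on the other strand and had 1.69, 2.98 and 6.91 CPM in young, 4.83, 4.32 and 2.41 CPM in adult and 18.7, 10.2 and 2.51 CPM in old fish, with overlapping ages.

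ENSNFUG00015002266 (sgr01, 21055735 to 21060127, minus strand, rank 29, mean 11.86 TPM) had 12.1, 5.70 and 3.51 CPM in young, 22.3, 22 and 36.2 CPM in adult and 73.7, 76 and 55 CPM in old fish. Its ages are also fully apart. The log2 fold change old against young was 3.27 ± 0.48 (edgeR adjusted p = 0.019), with 1.93 ± 0.45 for adult against young (adjusted p = 0.216) and 1.35 ± 0.44 for old against adult (adjusted p = 0.136). The old against young call ended without young replicate 2 (adjusted p = 0.0711), young replicate 3 (0.068), old replicate 1 (0.0616) or old replicate 2 (0.0678) and in a fit of the 2 ages alone (0.0941). Among all the alternatives its log2 fold change lay between 2.94 and 3.87 and its adjusted p between 5.56e-09 and 0.0941. The closest coding gene on its strand, described as SLAIN motif-containing protein-like, lies 20 bases downstream and had 10.7, 6.38 and 6.17 CPM in young, 2.48, 5.62 and 5.61 CPM in adult and 8.70, 2.84 and 7.10 CPM in old fish, with overlapping ages. The summed TPM of T and NK cell markers was also ordered by age. Of its 2 genes, 1 was counted as higher in old than in adult fish, so the sum may rest on 1 gene. The 2 genes found of 8 listed symbols summed to 0.03, 0.294 and 0.258 TPM in young, 0.798, 1.254 and 0.953 TPM in adult and 7.497, 10.88 and 7.499 TPM in old livers, with neither gene at 0 throughout and 1 of the 2 called in at least 1 comparison. The 3 B cell markers found summed to between 3.612 and 5.652 TPM in old and between 1.936 and 3.258 TPM in the younger libraries. The 7 macrophage markers found summed to between 236.1 and 478.7 TPM in old and overlapped the adult libraries (300.1 to 546 TPM). Lists of other cells differed as well. The sums of endothelial, cholangiocyte and germ cell and gonad markers were higher in every old library than in every adult one. Endothelial markers, for example, summed to 55.04 to 76.18 TPM in old and 39.86 to 53.23 TPM in adult fish. Fibroblast and stellate (22.53 to 28.91 TPM) and erythrocyte markers (4.97 to 19.39 TPM) summed lower in every old library than in any other. The part of any of these cells in the old against young and old against adult results was not tested.

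Libraries apart in CPM at both steps, young below adult below old, were seen in 4 lncRNA genes (2.12% of those tested, against 0.68% of all genes). For ENSNFUG00015012578 and ENSNFUG00015005137 the separation of adult and old depends on the scale, since these libraries overlap in TPM. Besides the pair above these are ENSNFUG00015005137 and ENSNFUG00015008679. ENSNFUG00015005137 had 333, 497 and 350 CPM in young, 819, 635 and 846 CPM in adult and 909, 1050 and 1400 CPM in old fish. Its log2 fold change old against young was 1.51 ± 0.29 (edgeR adjusted p = 0.0571), just outside the threshold. ENSNFUG00015008679 (sgr07, rank 199) had 0 counts in the young libraries, 0.0825, 0.180 and 0.922 CPM in adult and 0.954, 3.35 and 1.25 CPM in old fish. Against a floor of 3 counts over the 3 young libraries it was at least 12.5-fold higher in adult and at least 57.2-fold higher in old fish. These bounds cover counting error in the young libraries only, and not that in the adult or old ones. The gene was not called in edgeR (adjusted p = 0.312 and 0.0819).

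A further gene near the threshold for old against young was ENSNFUG00015006948 (sgr18, 16118440 to 16119853, minus strand). It had 67.4, 25.7 and 18.3 CPM in young, 56.8, 58 and 64.5 CPM in adult and 181, 185 and 133 CPM in old fish. Old libraries are above all others, while young replicate 1 lies above the adult libraries. Its log2 fold change old against young was 2.16 ± 0.46 (edgeR adjusted p = 0.0707). It ends 20 bases from ANTXR1, an anthrax toxin receptor gene, which had no library over 2.841 CPM.

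**Figure D2:**
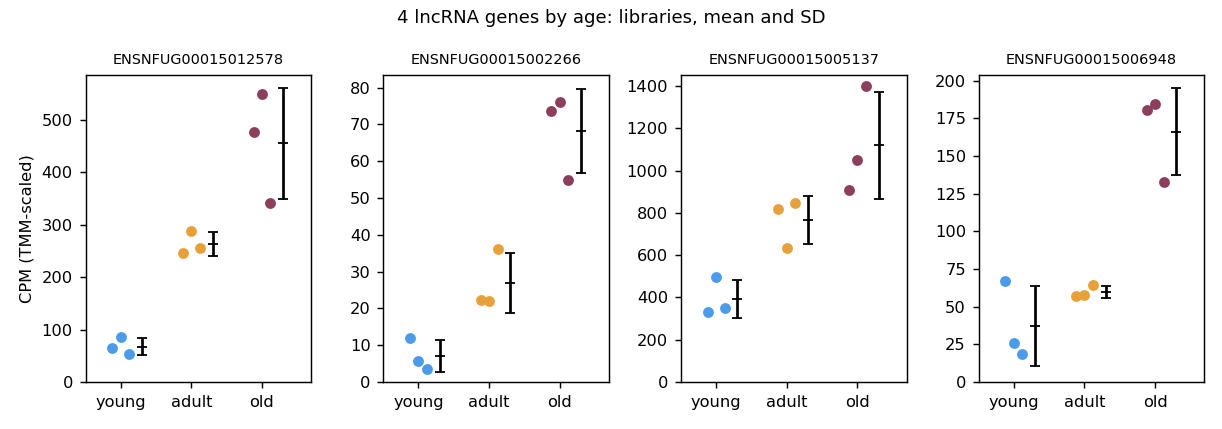
CPM (TMM-scaled) of ENSNFUG00015012578, ENSNFUG00015002266, ENSNFUG00015005137 and ENSNFUG00015006948 by age, with 1 point per library (replicates 1 to 3 from left to right) and the mean with its SD to the right. In CPM the ages are apart in the first 3 panels, and in the fourth young replicate 1 (67.4 CPM) lies above the adult libraries. In TPM the adult and old libraries of ENSNFUG00015012578 and ENSNFUG00015005137 overlap.

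On the lower side, no lncRNA gene was called for old against young. The gene with the smallest unadjusted p was ENSNFUG00015000392 (sgr01, rank 170), with 3.33, 2.80 and 0.772 CPM in young, 0.289, 0.360 and 0.241 CPM in adult and 0.0561, 0.152 and 0 CPM in old fish. It is the only one of the 189 whose libraries were apart and falling at both steps (0.529%, against 0.336% of all genes), and its log2 fold change old against young was -4.97 ± 1.20 (edgeR adjusted p = 0.0957). ENSNFUG00015007566 (rank 12) had 6.99, 60.7 and 11 CPM in young, 1.36 to 3.73 CPM in adult and 1.62 to 7.02 CPM in old fish (old against young adjusted p = 0.176), and young replicate 2 holds 68.6% of its summed TPM. ENSNFUG00015009384 (rank 82) had 2.95 to 4.07 CPM in young, 3.84 to 4.65 CPM in adult and 0.928 to 1.88 CPM in old fish, with old libraries below all others (old against young log2 -1.15 ± 0.50, edgeR adjusted p = 0.313).

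Over the 189 tested genes the median log2 fold change old against young was 0.40, beside -0.09 for all genes tested, with 124 genes higher and 65 lower. An unadjusted p under 0.05 was reached by 20 higher and 4 lower genes, together 12.7% against 15.1% of all genes. Old and young libraries were apart in 19 higher genes (10.1%, background 7.69%) and 7 lower ones (3.7%, background 7.9%). Without young replicate 1 the same fit called 34 lncRNA genes higher and 1 lower (18.3%, against 9.06% of all genes), and the median was 1.00. DESeq2 called 14 (7.41%, against 7.56%), limma-voom 4 (2.12%, against 0.594%), edgeR without a filter 3 (1.5%, against 0.619%), edgeR on the 2 ages alone 0 (against 0.0454%) and edgeR without old replicate 3 called 2 (1.03%, against 1.32%). Without young replicate 1 the call of ENSNFUG00015012578 remained (adjusted p = 0.00711).

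Between adult and old liver most of the abundant lncRNA genes had higher levels in old fish. Of the 189 tested genes 149 were higher and 40 lower, and the median log2 fold change was 1.17, beside -0.05 for all genes and -0.07 for protein-coding genes. The 3 old libraries hold 7.07 to 21.98% rRNA and the adult ones 2.22 to 2.51%, and with the rRNA share as a covariate, a fit chosen after seeing the data, the median was 0.48. The lncRNA genes outside the 200 had a larger median, 2.22 over 85 tested genes. Only these 85 of 844 passed the filter on low counts, and such low genes could pass it through the libraries where they are high. Their median is therefore partly set by the filter and is no independent comparison. In 94 of the 189 genes (49.7%, background 19.1%) every old library was above every adult one, and in 12 (6.35%, background 21.6%) every old library was below. In edgeR 0 genes of the 189 were called (background 0.00716%), with 69 higher and 2 lower at an unadjusted p under 0.05, 37.6% against 22.6% of all genes. DESeq2 called 48 of them (25.4%, against 13% of all genes), limma-voom called 0, edgeR on the 2 ages alone called 48 of 173 (27.7%, against 12.8%) and edgeR without young replicate 1 called 45 of 191 (23.6%, against 11.1%). Without old replicate 3 edgeR called 3 (against 1.84% of all genes), and without a filter on low counts 2 of 200 (1%, against 0.35%).

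The genes with the smallest unadjusted p for old against adult show the size of these differences. ENSNFUG00015019667 (scaffold LN600580.1, rank 146) had 0.990, 0.450 and 0.561 CPM in adult and 23.1, 11.3 and 6.26 CPM in old fish, a log2 fold change of 4.33 ± 0.77 (edgeR adjusted p = 0.075). It lies 20 bases upstream of vcana, which encodes the matrix proteoglycan versican, on the same strand, and vcana had 0.289 to 0.495 CPM in adult and 2.04 to 5.18 CPM in old fish (3.28 ± 1.00, adjusted p = 0.122). ENSNFUG00015017122 (scaffold LN601470.1, rank 22) had 20.3, 16.5 and 19.5 CPM in adult and 212, 114 and 83.3 CPM in old fish, a log2 fold change of 2.86 ± 0.56 (edgeR adjusted p = 0.0789). Its neighbour HSPA2, of the heat shock protein family, had 0.164 to 40.4 CPM in young, 0.682 to 25 CPM in adult and 4.62 to 21.7 CPM in old fish, with no separation of ages.

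ENSNFUG00015003559 had 270, 277 and 334 CPM in adult and 4342, 2710 and 1147 CPM in old fish, and its young libraries lay between 430.1 and 4413 CPM. The log2 fold change was 3.22 ± 0.76 for old against adult (edgeR adjusted p = 0.0949), -2.91 ± 0.75 for adult against young (adjusted p = 0.284) and 0.31 ± 0.70 for old against young (adjusted p = 0.879). ENSNFUG00015002836 (sgr05, 2192815 to 2194866, plus strand) had 153, 10.1 and 18.6 CPM in young, 26.5, 19.3 and 15.7 CPM in adult and 470, 364 and 152 CPM in old fish (old against adult log2 4.00 ± 0.96, adjusted p = 0.0981). An undescribed protein-coding gene 105 bases downstream on the same strand, ENSNFUG00015002838, had 208, 9.32 and 17.1 CPM in young, 11.3, 7.82 and 3.69 CPM in adult and 348, 315 and 146 CPM in old fish, so that both genes were high in the same 4 libraries.

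The old liver had the lowest mean in 27 of the 189 genes (14.3%, against 41.1% of all genes). The 4 lower genes with the smallest unadjusted p for old against adult were ENSNFUG00015009384, ENSNFUG00015003608, ENSNFUG00015015871 and ENSNFUG00015004573, with log2 fold changes of -1.44 ± 0.50, -2.90 ± 1.28, -1.74 ± 0.80 and -1.15 ± 0.54 and edgeR adjusted p of 0.144, 0.217, 0.231 and 0.24. ENSNFUG00015003608 had 2.06, 5.22 and 2.97 CPM in adult and 1.24, 0 and 0.139 CPM in old fish. ENSNFUG00015015871 had 3.51, 3.15 and 2.85 CPM in adult and 0.168, 1.73 and 0.928 CPM in old fish.

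**Figure D3:**
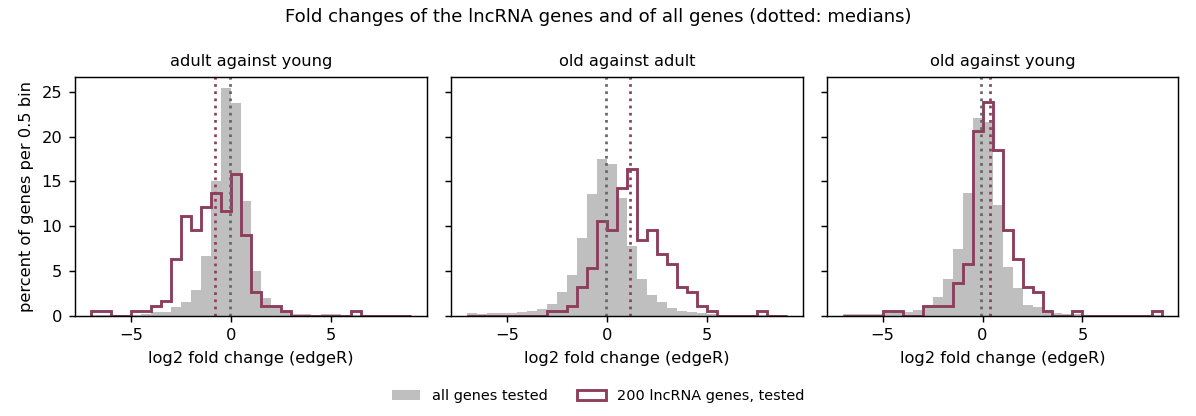
Distribution of log2 fold changes (edgeR, 0.5 wide bins) of the tested lncRNA genes (outline) and of all genes tested (grey) in the 3 comparisons, with dotted lines at the medians. The outline is shifted to lower values for adult against young (median -0.78) and to higher values for old against adult (median 1.17).

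Between young and adult liver the direction was the opposite. Of the 189 tested genes 58 were higher in adult and 131 lower, with a median log2 fold change of -0.78, beside -0.07 for all genes and -0.06 for protein-coding genes. In edgeR 0 were called (background 0.0143%), with 6 higher and 37 lower at an unadjusted p under 0.05, 22.8% against 9.76% of all genes. Adult and young libraries were apart in 16 higher genes (8.47%, background 12.0%) and in 36 lower genes (19%, background 9.68%). DESeq2 called 16 of them, 4 higher and 12 lower (8.47%, against 2.76% of all genes), limma-voom called 1 (against 0.0716%) and edgeR without a filter on low counts called 0 (against 0.0614%). Without young replicate 1 the median was -0.12 with 84 genes higher and 107 lower, and 0 were called (against 0.0411%). Scaling by library size alone gave 39 higher and 150 lower, and there the median of all genes was itself -0.363.

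The lower genes with the smallest unadjusted p for adult against young, all given as values since none passed, were ENSNFUG00015003559 (above), ENSNFUG00015007566 (above), ENSNFUG00015002872 and ENSNFUG00015024433. ENSNFUG00015002872 (sgr02, rank 27) had 166, 68.6 and 10.2 CPM in young, 9.28, 9.31 and 9.55 CPM in adult and 119, 92.2 and 30.1 CPM in old fish. ENSNFUG00015024433 (sgr03, rank 24) had 87.9, 17.3 and 16.9 CPM in young, 7.80, 10.4 and 9.30 CPM in adult and 69.4, 61.5 and 30.1 CPM in old fish. In both the adult libraries were close to each other and below all others. Among higher genes the smallest unadjusted p belonged to ENSNFUG00015012578, ENSNFUG00015002266, ENSNFUG00015008679 and ENSNFUG00015005137, the same 4 genes that were apart at both steps. The 3 comparisons share libraries, so these values are not independent of each other.

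Seen over the 3 ages, the adult liver had the lowest mean in 119 of the 189 genes (63.0%, against 35.5% of all genes), and the old liver the highest in 111 (58.7%, against 35.5%). These counts include young replicate 1, the highest young library in 73.5% of the genes, and were not repeated without it. Without it 84 of 191 tested genes were higher and 107 lower for adult against young (median -0.12). Adult libraries were wholly below both other ages in 22 genes (11.6%, background 4.83%) and wholly above both in 3 (1.59%, background 5.3%). These 3, of which the first and second are named after their values were seen, were ENSNFUG00015020084, ENSNFUG00015020087 and ENSNFUG00015015871. Means were ordered young, adult, old from low to high in 30 genes (15.9%, against 12.7% of all genes) and from high to low in 12 (6.35%, against 18.2%). Exocrine pancreas markers were highest in the adult libraries, as given above, and their part in the lower adult levels was not tested. In bulk liver, fewer cells of a type and less RNA per cell cannot be told apart.

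The lncRNA levels varied with the rRNA share of the libraries, which was lowest in the adult libraries and highest in young replicate 1 and the old ones. After the mean of each gene over the 9 libraries was subtracted, the median log2 CPM of the 189 genes was 0.76, -0.38 and -0.30 in young replicates 1, 2 and 3, -0.46, -0.34 and -0.45 in the adult and 0.63, 0.60 and 0.12 in the old libraries. The same medians over protein-coding genes stayed between -0.07 and 0.08. The 4 libraries above the rest are those with more than 7% rRNA, young replicate 1 and the 3 old ones, and old replicate 3, with the least rRNA of these, had the smallest median. On the TPM scale, as log2(TPM + 0.1), the medians were 0.57, 0.06 and 0.12 in young, -0.50, -0.21 and -0.36 in adult and 0.44, 0.48 and 0.06 in old libraries, beside -0.31, 0.44, 0.42, 0.02, 0.19, 0.11, -0.32, -0.11 and -0.09 over all genes in the same order, so the same 4 libraries were the highest relative to all genes.

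Gene by gene, these 4 libraries were exactly the highest 4 in 69 of the 189 genes (36.5%, against 11% of all genes). Young replicate 1 was the highest young library in 139 (73.5%, against 40.1%), and old replicates 1, 2 and 3 stood in descending order in 75 (39.7%, against 21.8%). The lncRNA genes outside the 200 gave similar shares, with 40.0% of 85 tested genes highest in exactly those 4 libraries. Low genes could pass the filter through those same libraries, so this share is partly set by the filter. With the rRNA share as a covariate in the fit, an alternative chosen after seeing the data, the median log2 fold change was 0.03 for adult against young, 0.48 for old against adult and 0.44 for old against young, and 0, 1 and 19 genes were called, against 0, 0.0573 and 5.1% of all genes. ENSNFUG00015012578 kept its old against young call in that fit (adjusted p = 0.0025). It was not among the genes with that order, and its adult libraries lie far above young replicate 1. The part of the rRNA share in its changes was not tested. Every old library has more rRNA than every adult one, so for old against adult the rRNA share and age cannot be told apart.

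**Figure D4:**
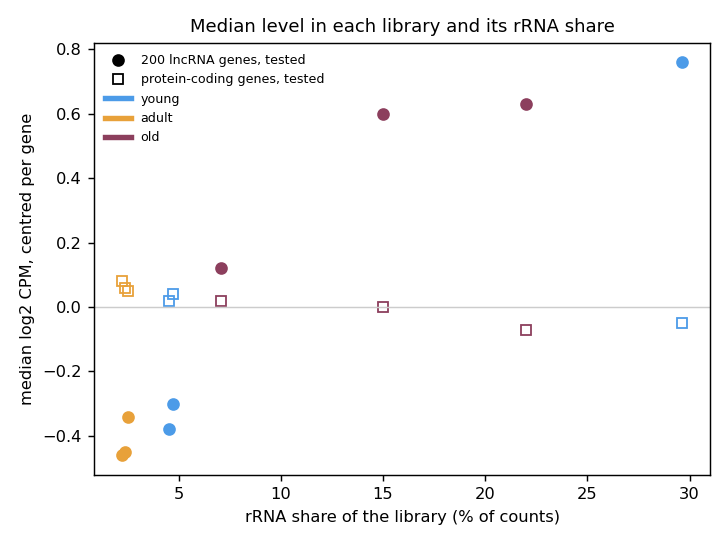
Median of log2 CPM, centred per gene, over the tested lncRNA genes (filled circles) and over protein-coding genes (open squares) in each of the 9 libraries, against the rRNA share of the library in percent of counts, coloured by age. The lncRNA median is between -0.46 and -0.30 in the 5 libraries with under 5% rRNA and between 0.12 and 0.76 in the other 4, while protein-coding medians stay near 0.

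**Figure D5:**
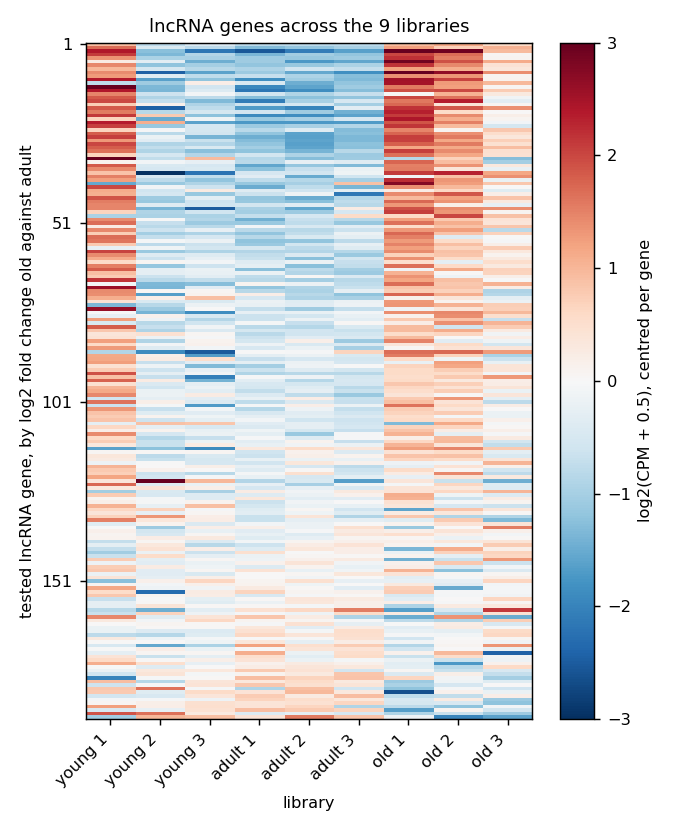
log2(CPM + 0.5), centred per gene, of the 189 tested lncRNA genes (rows, ordered by log2 fold change old against adult) in the 9 libraries (columns), with colours cut at -3 and 3. Young replicate 1 is red with the old libraries in the upper part, and old replicate 3 is paler than old replicates 1 and 2.

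Some genes varied little, and some had most of their level in 1 library. The median coefficient of variation of CPM over the 9 libraries was 75.6% for the 189 genes and 54.3% for all genes tested. The 5 most even genes were ENSNFUG00015020546 (12.9%), ENSNFUG00015016531 (16.0%), ENSNFUG00015021689 (19.8%), ENSNFUG00015016601 (20%) and ENSNFUG00015012152 (20%). ENSNFUG00015020546 had 20.7, 18.2 and 21.5 CPM in young, 20.8, 17.8 and 19.6 CPM in adult and 23.8, 15.2 and 18.1 CPM in old fish, including the rRNA-rich libraries. ENSNFUG00015016531 and ENSNFUG00015016601 lie close to each other on sgr01, from 24910513 to 24912314 and from 24933556 to 24938069. ENSNFUG00015021689 had means of 24.7 ± 2.56, 34.3 ± 4.58 and 35.3 ± 5.05 CPM in young, adult and old fish (SD, n = 3), and its highest young library lies below all adult and old ones.

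At the other extreme, 4 of the 200 genes had most of their summed TPM in 1 library, and 165 had a count in every library. These were ENSNFUG00015020649 (80.4% in young replicate 1), ENSNFUG00015002565 (71.3% in old replicate 1), ENSNFUG00015007566 (68.6% in young replicate 2) and ENSNFUG00015025328 (54.0% in young replicate 1). ENSNFUG00015020649 (sgr10, rank 185) had 25.8, 0.221 and 1.82 CPM in young and at most 1.471 CPM in any other library, so that its place among the 200 rests on 1 library. Its neighbour INHBC, described as inhibin beta B chain-like, had 3.06, 21.9 and 52.3 CPM in young, 0.802 to 7.64 CPM in adult and 0, 0.102 and 0 CPM in old fish, and its young libraries are in another order. Next came ENSNFUG00015013450 (49.1% in old replicate 2) and ENSNFUG00015008679 (47.0% in old replicate 2).

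The genes whose log2 CPM over the 9 libraries was most like that of ENSNFUG00015012578 included enzymes of liver metabolism. Of protein-coding genes they included bhmt (Pearson r = 0.984), which returns homocysteine to methionine, HTRA1B (0.977), a secreted serine protease, fah (0.969), the last enzyme of tyrosine breakdown, and asb5a (0.967). Of lncRNA genes they were ENSNFUG00015002266 (0.941), ENSNFUG00015008848 (0.907, outside the 200), ENSNFUG00015005137 (0.906), ENSNFUG00015006948 (0.842) and ENSNFUG00015014893 (0.829). These are descriptions over 9 libraries of 3 ages that share their depth, composition and age, picked as the highest of all genes tested. For scale, bhmt had 1829, 1882 and 1114 CPM in young, 5542, 5130 and 6473 CPM in adult and 9717, 10330 and 9203 CPM in old fish, ordered by age as the lncRNA gene is.

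By position, the abundant lncRNA genes lay closer to coding genes than the other lncRNA genes did. None of the 200, and none of the other 844, overlapped a protein-coding gene in the table (0 and 0). The nearest protein-coding gene was at a median of 3411 bases, against 6628 bases for the others, and within 1000 bases in 26.0% against 12.3%. On the same strand and within 1000 bases the shares were 15.5 and 7.58%. In 7 of the 200 genes (3.5%, against 2.25% of the others) the gap to a coding gene on the same strand was exactly 20 bases, with the coding gene downstream in 6 and upstream in 1. Single-exon genes made up 17.5% of the 200 and 34.8% of the others, and genes on unplaced scaffolds 24.0 and 12.8%. The median length was 1598 bases (range 351 to 7559), beside 1474 bases for the other lncRNA genes.

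The signs of fold changes were set beside those of neighbouring coding genes. Of 25 tested pairs on the same strand within 1000 bases, 13 had fold changes of the same sign for adult against young, 19 for old against adult and 19 for old against young. Of 32 pairs whose nearest coding gene was more than 10000 bases away, 17, 15 and 17 did. For adult against young the shares were 52% in close and 53.1% in distant pairs. They were 76 and 46.9% for old against adult, and 76 and 53.1% for old against young. Of the 5 close pairs of lncRNA genes outside the 200, 1, 2 and 2 had the same sign. In the 25 close pairs the median log2 fold change old against adult was 1.30 for the lncRNA genes and 0.66 for the coding genes, and in the distant pairs it was 1.03 and -0.28. The difference between close and distant pairs was not tested. The labels do not state whether counting used strand.

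Annotation limits what some of these names mean. ENSNFUG00015009027 (scaffold LN602162.1, 10388 to 28349, minus strand) contains a 5.8S rRNA gene and overlaps ENSNFUG00015009012 on the other strand, and without stated strand use the reads of such a pair cannot be told apart. It had 343, 70.6 and 30.6 CPM in young, 29.3, 26.2 and 32 CPM in adult and 349, 240 and 104 CPM in old fish. In all 2 of the 200 genes overlap an rRNA gene, 21 another lncRNA gene and 5 a pseudogene, and leaving out those that overlap an rRNA gene gave medians of -0.75, 1.13 and 0.38. Of the 200 genes 146 had only whole-number counts and 54 had a fraction in some library, which estimated counts have where reads are shared between genes or copies, and levels of these 54 are less certain. ENSNFUG00015003559 and ENSNFUG00015009027 are among them.

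In RefSeq's annotation (assembly NfurGRZ-RIMD1, another assembly, used only for names and order) 97 of the 200 genes are flanked on both sides by genes that RefSeq also has, within 200000 bases of each other. In 23 of these 97 the table has no other coding gene between the flanks, and in 13 of the 23 RefSeq has a protein-coding gene there, in 1 a lncRNA gene alone and in 9 neither. Between the flanks of ENSNFUG00015005137, the adenosine receptor A1-like gene LOC107384929 and ip6k2a, lies the protein-coding gene LOC107384931. Between those of ENSNFUG00015002266, the SLAIN-like gene and MCART6, lies tmsb1, of the thymosin beta family of actin-binding proteins. No table used here pairs these genes with the Ensembl IDs, so whether they are the same transcripts was not tested.

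None of the listed genes that handle lncRNAs in the cell was called in any comparison. Of all genes tested, edgeR called 0.0143% for adult against young, 0.00716% for old against adult and 0.558% for old against young. With shares this low, 0 calls in such short lists do not set these genes apart. Of 27 tested nuclear RNA decay genes, which include the exosome subunits, 0 were called in edgeR, with 6 higher and 21 lower for adult against young (median log2 fold change -0.29), 17 and 10 for old against adult (0.22) and 12 and 15 for old against young (-0.11). Among the most abundant of them, EXOSC6, an exosome subunit, had 23.4, 32.9 and 25.7 CPM in young, 15.1, 13.9 and 14.6 CPM in adult and 8.64, 16.2 and 15.4 CPM in old fish, and exosc1 had 13 to 27.3 CPM in young, 29.5 to 33.5 CPM in adult and 34.7 to 43.3 CPM in old fish. For 13 nonsense-mediated decay genes the medians were -0.15, 0.28 and 0.12, for 17 genes of nuclear retention, export and paraspeckles -0.32, 0.04 and -0.18, for 9 genes of the miRNA pathway -0.30, -0.76 and -0.69 and for 7 polycomb genes -0.49, -0.14 and -0.23, with 0 called in each. The medians over all genes tested were -0.07, -0.05 and -0.09.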

How the data were processed

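Bulk liver RNA of 9 samples was sequenced. Per the labels' protocols, TRIzol-extracted, DNase-treated RNA went into the SMART-Seq mRNA Kit. DRAGEN is named in the submitters' processing notes; aligner, genome build and annotation are not given in these sources. The deposited table holds an estimated count (expected count, unscaled) and a TPM value, scaled for length by the authors, for each gene and library, per the file headers. Between 93.6 and 95.7% of estimated counts were whole, and all were rounded.

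Members were chosen by mean TPM. Testing used edgeR 4.0.16 (R 4.3.3) (filterByExpr on the 3 ages, TMM, glmQLFit robust, 1 mean per age, 9 libraries), with Benjamini-Hochberg adjustment over 13971 genes. The SE is the log2 fold change divided by the square root of F. A gene without counts at an age was given a floor of 3 counts over its libraries. The script was tested on simulated counts. Alternatives were RLE, upper-quartile and library-size scaling, removal of rRNA and mitochondrial genes, no filter, DESeq2 1.42.0, limma-voom (limma 3.58.1), non-robust edgeR, 2 ages alone, a replicate block, each library left out, other member rules and, chosen after seeing the data, the rRNA share as a covariate and members without rRNA overlap.

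The members and lists were chosen with earlier results of these data known. Named are ENSNFUG00015012578, the 10 most abundant members, members called (or, under 4 called, the 4 higher and 4 lower with the smallest unadjusted p in each comparison), the 6 most concentrated in 1 library, the 5 most even, those around the rank limit, the 5 lncRNA and 5 coding genes most like ENSNFUG00015012578, neighbours, and the top of the RNA-handling lists, of which the text prints some and 1 is not reported here.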

Additional observations from a re-analysis of the deposited data

How the results depend on the processing

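The alternatives gave 260 values, of which 230 kept their direction and side of the threshold or stayed within the spread. The causes of the others were not tested, beyond what each alternative leaves out. The 230 are no measure of robustness, since the alternative without coding overlap equals the main result and could not differ. For old against young the spread of 0.7 is larger than the median of 0.40, so even a change of sign could stay within it. Of all genes, DESeq2 called 2.76% for adult against young, 13% for old against adult and 7.56% for old against young. In the same order, the 2 ages alone gave 0, 12.8 and 0.0454%, and the rRNA covariate 0, 0.0573 and 5.1%. Leaving out young replicate 1 gave 0.0411, 11.1 and 9.06% of all genes. Without old replicate 2 the share was 0.0137% for old against young. For adult against young the 0 called genes became 16 in DESeq2 and 1 in limma-voom, and the median of -0.78 became 0.03 with the rRNA share as a covariate; leaving out libraries gave 0 called and medians from -1.04 to -0.12. For old against adult the 0 called became 48 in DESeq2, 48 on the 2 ages alone, 2 without a filter and 1 with the covariate, where the median of 1.17 became 0.48; leaving out libraries gave 0 to 45 called (45 without young replicate 1, 3 without old replicate 3) and medians from 0.99 to 1.30. For old against young the 2 called became 14 in DESeq2, 4 in limma-voom, 0 on the 2 ages alone and 19 with the covariate; leaving out libraries gave 0 (without old replicate 2) to 35 (without young replicate 1), with medians from 0.13 to 1.00.

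ENSNFUG00015012578 was past the threshold for adult against young in DESeq2 (1.94, adjusted p = 2.79e-07) and limma-voom (1.98, adjusted p = 0.046). It lost its old against young call on the 2 ages alone (2.74) and without old replicate 2 (2.59, edgeR adjusted p = 0.0564). Leaving out libraries gave 2.59 to 2.95 for old against young. The old TPM share of 0.532% was 0.609% without rRNA and mitochondrial genes, and 0.521 to 0.544% with a library left out. All 200 members are free of overlap with a coding gene, so that alternative equals the main result. Medians with genes without counts at an age set to their bound were -0.78, 1.17 and 0.40.

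The replicate number as a block gave 0, 0 and 2 called genes, against 0, 0 and 0.322% of all genes. Whether the numbers pair the samples was not settled. The deviations of same-numbered libraries correlated at -0.0579 to 0.264, and differently numbered libraries were not compared. Depth limits the low members, 11 of which were not tested.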
